A study of Mus musculus with 6 samples.

Results

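Glutamate receptor genes and the genes of the scaffolds that hold these receptors at the postsynaptic membrane were followed here in the prefrontal cortex of mice without Nrf2, set against wild type mice. The 38 genes comprise 22 receptor subunits and 16 postsynaptic scaffold and signalling genes, and were taken by name from 17560 protein-coding genes with a tested probe. They were matched through the gene name on the array or through a RefSeq transcript of the gene, which gave 103 probes, from 2 to 6 per gene. All 103 probes were well above background on all 6 arrays, so none of the 38 genes was lost to the filter on dim probes.

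There were 3 Nrf2 knockout and 3 wild type samples of prefrontal cortex, all from male mice of the outbred ICR strain aged 3 to 4 months, measured on 1-colour Agilent arrays that carry probes for mRNAs, long non-coding RNAs and circular RNAs. Nrf2 is the protein of Nfe2l2, a transcription factor that switches on genes of the antioxidant defence. Neither the design of the knockout allele is given in the labels, nor whether the arrays stand for 6 different animals, and p-values therefore refer to the spread among these arrays, which may be technical. Values are log2 signals minus the 75th percentile of their array. Knockout replicate 1 lay on slide 1 with all 3 wild type arrays, whereas knockout replicates 2 and 3 lay on slide 2.

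The targeted gene was low in every knockout sample. At its brightest probe Nfe2l2 stood at -3.74, -3.79 and -3.46 in the knockout samples, against 0.49, 0.39 and 0.35 in the wild type samples, a log2 change of -4.08 (SE 0.116, limma adjusted p = 6.14e-04). Its other probes failed the background criterion on every knockout array, and their signal there was lower by at least 81.5-fold and 65.6-fold. Those bounds set the wild type mean against the lowest signal counted as well above background on each knockout array, or the probe's own where higher. On the first principal component, which held 52.2% of the variance, knockout replicates 2 and 3 scored 101 and 99.5, knockout replicate 1 scored -25.8, and the wild type arrays scored -70.7, -54.8 and -49.

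Marker genes of several cell types were read on the same arrays. All 10 markers of cortical excitatory neurons were well above background on every array. So were all genes of the other lists, such as the 9 striatal and 5 choroid plexus markers, so this does not identify the tissue. The summed signal of the 10 markers, in multiples of the array's 75th percentile, was 187 to 193 in knockout and 174 to 194 in wild type samples. The 8 pan-neuronal markers summed to 1124 to 1184 in knockout and 1092 to 1183 in wild type samples. The sums of 2 other marker lists did not overlap between genotypes, although none of their genes passed the threshold. The 4 red blood cell markers summed to 557 to 627 in knockout and 412 to 544 in wild type samples. Of these 4, 3 were higher in every knockout array, beside 6.47% of all coding genes. The 5 choroid plexus markers, summed to 1.89 to 2.19 in knockout and 2.37 to 2.91 in wild type samples. Of these 5, 2 were lower in every knockout array (Kl by -0.66 and Kcnj13 by -0.55), beside 12.9% of all coding genes. With normexp background correction the changes of Kl and Kcnj13 were -0.31 and -0.50. The other 3 overlapped, with changes of 0.22 (Ttr), 0.18 (Folr1) and -0.095 (Clic6). The sums of the 9 striatal markers overlapped, at 54.1 to 57.4 in knockout and 54.8 to 55.8 in wild type samples. Of the 9, 3 were lower in every knockout array (Drd2 by -0.43, Adora2a by -0.53, Rgs9 by -0.37), beside 12.9% of all coding genes. With normexp background correction the changes of these 3 were -0.10, -0.51 and -0.34, and Drd2 was dim on all arrays. The other striatal markers overlapped, and 5 of the 9 lay above 0. None of these markers was at 0, and the part of blood, choroid plexus or striatum in the values below was not tested. In bulk tissue, fewer cells of a type and less RNA per cell cannot be told apart.

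Glutamate carries most fast excitation in the cortex. It opens the AMPA, NMDA and kainate receptor channels, and acts more slowly through metabotropic receptors coupled to G proteins. Behind the membrane, DLG proteins hold the receptors, DLGAP proteins link DLG to SHANK, and SHANK and HOMER tie the channel receptors to the metabotropic ones and to the actin skeleton. Calcium that enters through NMDA receptors binds calmodulin and activates CaMKII, a kinase that strengthens synapses.

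No gene of the 38 differed between Nrf2 knockout and wild type at an adjusted p of 0.05 in limma, where 0.0171% of all coding genes did. The lowest adjusted p was 0.327, for Grin2d. Unadjusted, 1 of the 38 (Grin2d, lower) had a p under 0.05, which is 2.63% beside 12.4% of all coding genes (9.46% lower). In 5 genes the genotypes did not overlap, 3 of them higher in the knockout (Gria2, Dlgap1, Shank1) and 2 lower (Grin2d, Homer3); this is 13.2%, beside 19.4% of all coding genes (6.47% higher and 12.9% lower). The log2 changes ran from -0.66 to 0.34 with a median of 0.073, beside -0.0051 over all coding genes, and 23 of 38 lay above 0, which 48.7% of all coding genes did.

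In the fit without slide, most of these changes had narrow intervals at the brightest probe. The 95% interval of 34 of the 38 genes lay within 1.5-fold in either direction, as it did for 73.8% of all coding genes. The 4 genes with wider intervals were Grin2d, Grin3a, Grid1 and Dlgap1, and of these Grid1 alone reached past 2-fold. An adjusted p above the threshold does not show that the genotypes had equal levels, and 3 arrays a genotype limit the precision. The intervals do not cover the difference between slides: with slide as a block, 11 of the 38 changes turned sign. Nor do they cover the spread between probes of a gene, given below.

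**Figure D1:**
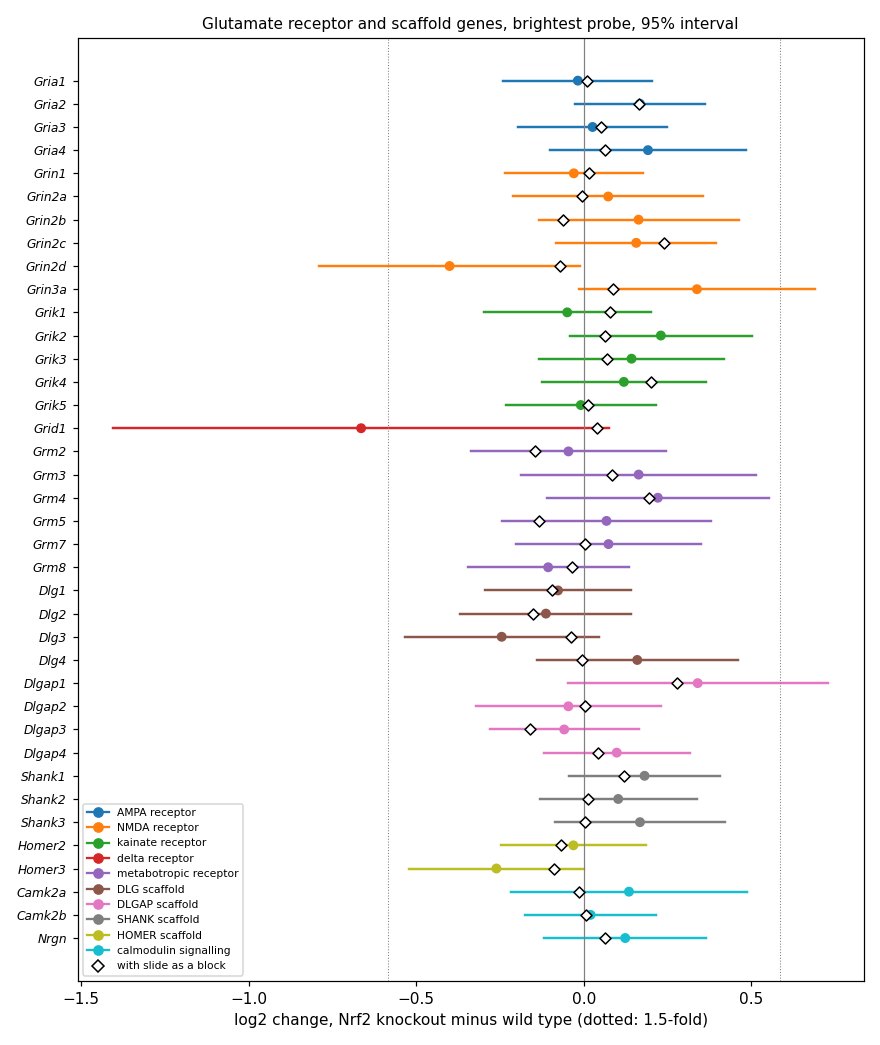
Log2 change (Nrf2 knockout minus wild type, horizontal axis) of each of the 38 genes at its brightest probe, with its 95% interval, coloured by class; open diamonds give the change with slide as a block and dotted lines mark 1.5-fold. The intervals of 34 genes stay between the dotted lines, and the diamonds of Grin2d and Grid1 lie near 0.

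The AMPA receptor subunits, which form the channels of most fast transmission, had changes between -0.018 (Gria1) and 0.19 (Gria4, 0.064 with slide as a block). Gria2, whose edited subunit keeps calcium out of the channel, had log2 values of 6.25, 6.21 and 6.29 in the knockout samples, against 6.09, 6.11 and 6.05 in the wild type samples. Every knockout array was above every wild type array. The difference was 0.17 (SE 0.081, 95% interval -0.026 to 0.36, adjusted p = 0.359), or 1.12-fold, and knockout replicate 1 taken alone stood 0.16 above the wild type mean. This probe lies at chr3:80492452-80492511 of mm9, by the array's annotation. The 2 other probes of Gria2 overlapped between genotypes, with changes of 0.15 and 0.011.

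Among the NMDA receptor subunits, Grin1, the subunit every NMDA receptor needs, had a change of -0.030 (95% interval -0.23 to 0.18). Grin2a and Grin2b, the main glutamate-binding subunits of the forebrain, had changes of 0.073 and 0.16. Grin3a, a glycine-binding subunit that lowers the calcium entry of the receptor, had a change of 0.34 (SE 0.147, adjusted p = 0.339), with overlapping genotypes. With slide as a block the change of Grin3a was 0.088. Grin2d, a subunit of slowly closing receptors, had -0.99, -1.36 and -1.61 in the knockout samples, against -0.94, -0.91 and -0.90 in the wild type samples. The knockout arrays were all lower, but replicate 1 lay just under the wild type range and replicates 2 and 3, on the other slide, lay well under it.

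The log2 change of Grin2d was -0.40 (SE 0.162, 95% interval -0.79 to -0.012, unadjusted p = 0.045, adjusted p = 0.327), and -0.070 with slide as a block. With normexp background correction Grin2d changed by -0.27. Its second probe went the other way. That probe stood at -2.06, -2.08 and -1.87 in the knockout samples, against -2.29, -2.19 and -2.26 in the wild type samples, a change of 0.24 (SE 0.0964). Grin2d was the only one of the 38 genes with 1 probe lower and another higher, both without overlap. The lower probe lies at chr7:53088243-53088302 of mm9, and the array's annotation gives no position for the other one.

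No kainate receptor gene separated the genotypes at its brightest probe, while 1 further probe each of Grik1 (0.12) and Grik3 (0.19) was higher in every knockout array. Grik2, a principal kainate subunit, had the smallest p of the class, with 0.10, 0.29 and 0.41 in the knockout samples, against -0.066, 0.11 and 0.077 in the wild type samples. The ranges overlapped slightly, and the change was 0.23 (SE 0.113, adjusted p = 0.364), and 0.064 with slide as a block. Its 2 other probes had changes of -0.14 and -0.11. The remaining 4 genes of the class ran from -0.049 (Grik1) to 0.14 (Grik3).

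The delta receptor gene Grid1 had the lowest change of the 38 genes. Its protein is not known to be opened by glutamate in the usual way and joins presynaptic neurexin through cerebellin. Grid1 stood at -0.94, -1.82 and -2.17 in the knockout samples, against -1.06, -1.10 and -0.79 in the wild type samples. The knockout arrays of slide 2 were low, whereas replicate 1, on the slide of the wild type arrays, lay within the wild type range. The change was -0.66 (SE 0.308, 95% interval -1.40 to 0.075, adjusted p = 0.351) and 0.041 with slide as a block. With normexp background correction it was -0.39. The second Grid1 probe had a change of 0.094 (SE 0.0943).

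The metabotropic receptors overlapped between genotypes throughout at their brightest probes. Grm5, which raises calcium through phospholipase C, had a change of 0.068. Grm2 and Grm3, which lower cyclic AMP, had changes of -0.046 and 0.16. Among Grm4, Grm7 and Grm8, which damp release from the presynaptic ending, Grm4 had the smallest p of the class. It stood at 2.39, 2.49 and 2.37 in the knockout samples, against 2.45, 1.96 and 2.18 in the wild type samples. The knockout arrays lay inside or above the wild type range, with a change of 0.22 (SE 0.138, adjusted p = 0.435). At a second Grm4 probe, chr17:27572067-27572126 of mm9, the samples had -2.53, -2.20 and -2.27 in the knockout, against -2.69, -3.13 and -2.96 in the wild type. All 3 knockout arrays were higher there, by 0.59 (SE 0.150, unadjusted p = 0.0064, adjusted p = 0.307).

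Of the DLG scaffolds, Dlg1, Dlg2 and Dlg3 lay below 0 and Dlg4, which encodes the most abundant one of the postsynaptic density, was at 0.16 (95% interval -0.14 to 0.46). Dlg3, a scaffold prominent early in synapse development, stood at 4.85, 4.53 and 4.53 in the knockout samples, against 4.97, 4.78 and 4.90 in the wild type samples. Replicates 2 and 3 of the knockout were below every wild type array and replicate 1 was not. The change was -0.24 (SE 0.120, adjusted p = 0.364), and -0.037 with slide as a block. The other Dlg3 probe had a change of 0.23 (SE 0.117).

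The DLGAP genes encode the link between DLG and SHANK. Dlgap1 had the highest change of the 38 genes, with 6.13, 6.24 and 6.21 in the knockout samples, against 5.52, 5.93 and 6.12 in the wild type samples. The genotypes only just separated, since wild type replicate 3 lay beside the lowest knockout array and wild type replicate 1 far below. The change was 0.34 (SE 0.162, 95% interval -0.048 to 0.73, adjusted p = 0.356), and 0.28 with slide as a block. Its other probes had changes of 0.044, 0.034 and -0.13. Dlgap2, Dlgap3 and Dlgap4 had changes of -0.046, -0.058 and 0.098.

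All 3 SHANK genes lay above 0, with changes of 0.18 for Shank1, 0.10 for Shank2 and 0.17 for Shank3, under every scaling tried. With slide as a block these changes were 0.12, 0.012 and 0.0023, so those of Shank2 and Shank3 came mainly from the knockout arrays of slide 2. SHANK proteins are the deep layer of the postsynaptic density. Shank1 stood at 1.47, 1.48 and 1.63 in the knockout samples, against 1.41, 1.36 and 1.27 in the wild type samples. The genotypes did not overlap, and the nearest arrays of the groups lay close to each other. The change was 0.18 (SE 0.0937, adjusted p = 0.377), and 0.22 at its other probe, where the arrays overlapped.

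HOMER proteins bind metabotropic receptors, SHANK and the calcium stores. Homer3 stood at 0.24, 0.053 and -0.095 in the knockout samples, against 0.32, 0.36 and 0.29 in the wild type samples. All knockout arrays were lower, those of slide 2 more so, and the change was -0.26 (SE 0.109, 95% interval -0.52 to 0.0013, adjusted p = 0.332). Its second probe, chr8:72817724-72817783 of mm9, also put every knockout array below every wild type array, by -0.47 (SE 0.147, unadjusted p = 0.017, adjusted p = 0.307). Homer3 was the only one of the 5 genes whose other probes also separated the genotypes in the same direction. With slide as a block the changes of the 2 probes were -0.090 and -0.19. Homer2 had a change of -0.031, and its sign turned when arrays were centred on their median.

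In the calmodulin group the genotypes overlapped at the brightest probes. A further probe separated them in Camk2a, lower in the knockout by -0.22 (SE 0.111), and in Camk2b, higher by 0.20 (SE 0.106). Camk2a and Camk2b, the main CaMKII subunits, had changes of 0.13 and 0.020, and Camk2b turned below 0 with quantile normalization or normexp background correction. Nrgn, neurogranin, which holds calmodulin at the spine, had the smallest p of the group. It stood at 8.58, 8.69 and 8.64 in the knockout samples, against 8.65, 8.40 and 8.49 in the wild type samples. The ranges overlapped, and the change was 0.12 (95% interval -0.12 to 0.37, adjusted p = 0.532).

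**Figure D2:**
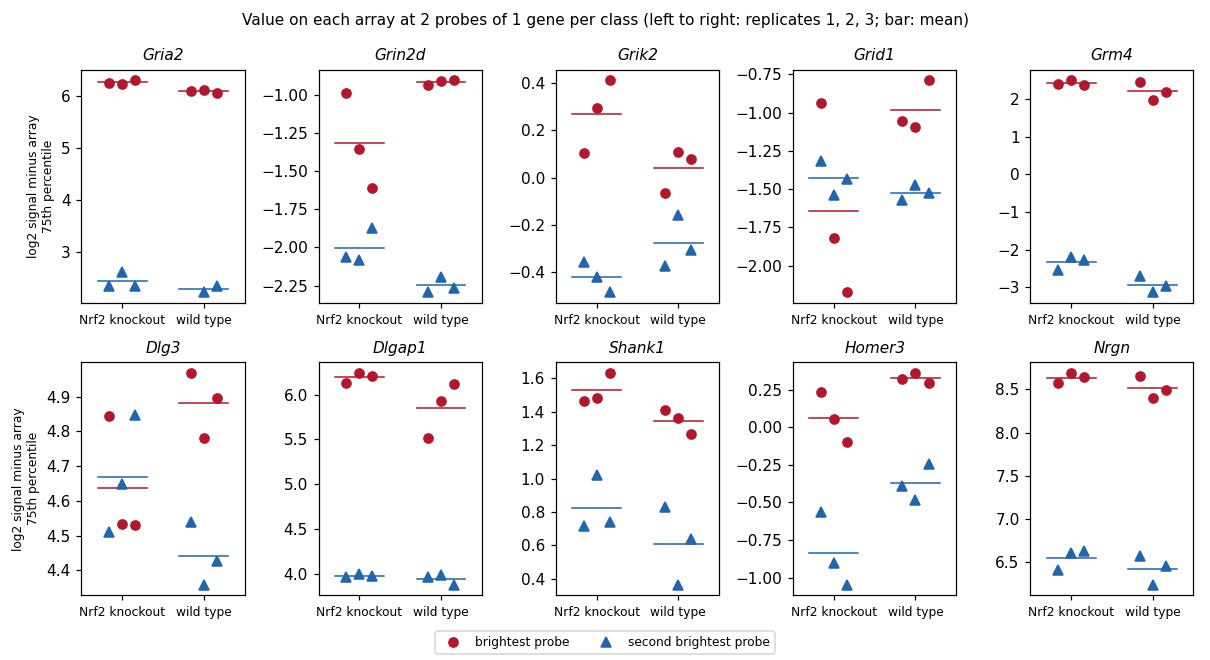
Log2 signal minus the array's 75th percentile (vertical axes) on each Nrf2 knockout and wild type array for 1 gene of each class; circles are the brightest probe, triangles the second brightest, bars the mean of 3 arrays, and points run from replicate 1 to 3. Both Homer3 probes are lower in all knockout arrays, whereas the Grin2d probes separate in opposite directions.

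Array by array, knockout replicate 1, beside the wild type arrays on slide 1, had a median deviation of 0.012 from the wild type mean over the 38 genes. Replicates 2 and 3, on slide 2, had 0.11 and 0.092. The wild type arrays themselves ranged from -0.053 to 0.073. Over all coding genes the medians were -0.060, 0.041 and 0.0088 in knockout replicates 1 to 3, and -0.033 to 0.026 in wild type arrays. The 38 genes thus lay above the median of all coding genes on each knockout array, and also in wild type replicate 1. A fit with slide as a block compares the genotypes only within slide 1. There the median change was 0.012, beside -0.060 over all coding genes, and 24 of 38 genes lay above 0, beside 34.1%. None of the 38 had an unadjusted p under 0.05 in that limma fit, beside 5.4% of all coding genes. Genotype and slide cannot be told apart for knockout replicates 2 and 3.

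Leaving out knockout replicate 1 left only knockout arrays of slide 2 and wild type arrays of slide 1. In that fit 2 of the 38 genes passed the threshold, Grin2d (-0.57, adjusted p = 0.0269) and Grid1 (-1.02, adjusted p = 0.0161). This is 5.26%, beside 8.95% of all coding genes, and 13562 probes passed in all.

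**Figure D3:**
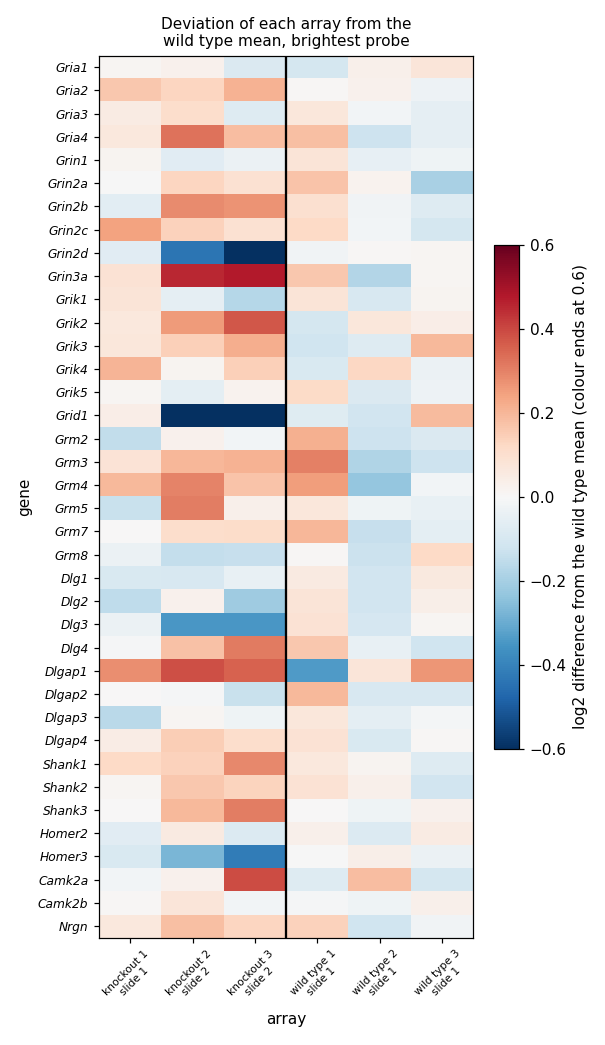
Difference of each array (columns, knockout left of wild type) from the wild type mean for the 38 genes (rows), as a log2 difference in colour, red above and blue below, with the colour ending at 0.6. The strongest blue cells, in Grin2d and Grid1, stand in knockout replicates 2 and 3 of slide 2, while knockout replicate 1 is pale in most rows.

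Different probes of the same gene often gave different changes. None of the 103 probes passed the threshold (lowest adjusted p = 0.307), where 0.0179% of probes for coding genes did. An unadjusted p under 0.05 was found at 8, which is 7.77% beside 11.1% of probes for coding genes. The genotypes did not overlap at 24 probes, 20 higher and 4 lower in the knockout, which is 23.3% beside 19.1% (9.44% higher and 9.69% lower). In 17 genes all probes lay on the same side of 0 and in 21 they lay on both sides. The span between the lowest and highest change within a gene had a median of 0.20 and reached 0.76 in Grid1. Apart from those given above, the probes with an unadjusted p under 0.05 were further probes of Grin2c (0.42), Shank2 (0.40), Dlg2 (0.30) and Dlgap4 (0.22), all higher in the knockout and chosen for mention after their values were seen. Grin2c encodes an NMDA subunit of low conductance, best known in the cerebellum. With all probes of a gene averaged, none of the 38 genes passed the threshold and the median change was 0.072.

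**Figure D4:**
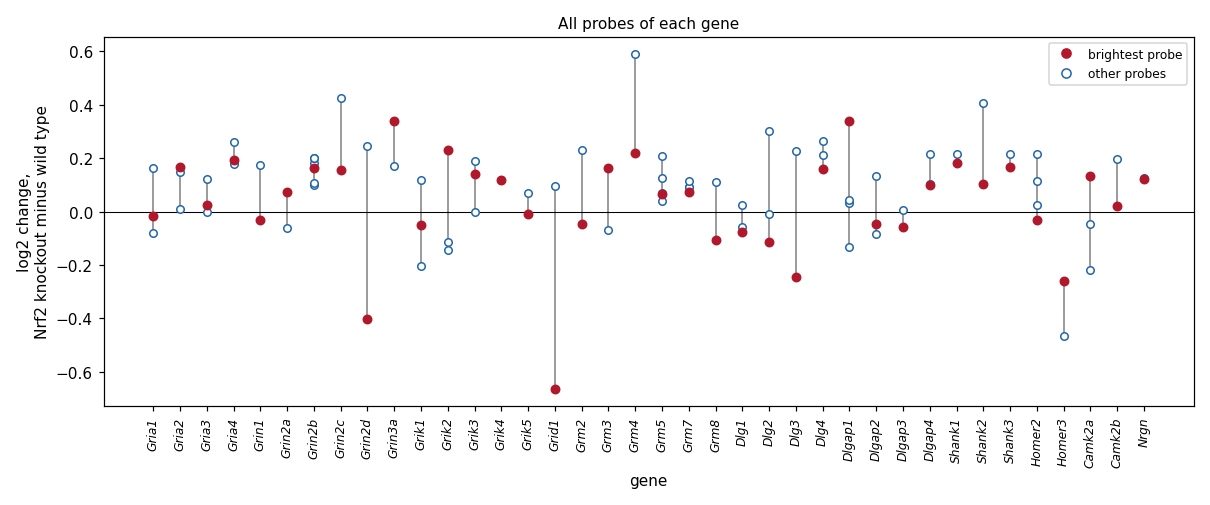
Log2 change (Nrf2 knockout minus wild type, vertical axis) at every probe of the 38 genes; filled points are the brightest probe, open points the others, and lines join the probes of a gene. Grid1 and Grin2d have the widest spans, and Homer3 has both points below 0.

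The array also carried probes for circular RNAs, which form when the end of an exon is spliced back to an earlier start, and 310 of them lay inside 28 of these genes. Their names were read as GRCm38 positions, because 97.3% of all circular RNAs on the array then fell inside a coding gene, against 35.9% after a shift by 1 Mb. A circular RNA probe reads the joined ends. The lead circular RNA of Grm7 and 3 that share its start or its end are shown first, since their probes share part of their letters, which are in capitals; the strand is plus and the positions are GRCm38.
chr6:111358145-111359080: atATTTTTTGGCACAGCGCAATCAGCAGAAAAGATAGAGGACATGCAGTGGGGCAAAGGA
chr6:111267258-111359080: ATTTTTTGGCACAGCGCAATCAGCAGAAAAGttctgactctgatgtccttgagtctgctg
chr6:111358145-111399248: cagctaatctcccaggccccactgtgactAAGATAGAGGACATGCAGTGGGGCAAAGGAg
chr6:111358145-111410642: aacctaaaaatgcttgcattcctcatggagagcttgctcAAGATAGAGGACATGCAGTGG

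The first of these had the smallest p of all circular RNAs inside the 38 genes. It stood at -0.58, -1.03 and -1.21 in the knockout samples, against -0.24, 0.17 and -0.0069 in the wild type samples. All knockout arrays were lower, and the change was -0.92 (SE 0.191, unadjusted p = 0.0024, adjusted p = 0.307); it was -0.56 with slide as a block. The 2 next ones, which share 31 and 30 bases with its probe, were also lower in every knockout array, by -0.43 (SE 0.132) and -0.41 (SE 0.126). The last one, which shares 21 bases, had a change of 0.065 (SE 0.131). Since the probes share letters, the first 3 are not independent measurements. The mRNA of Grm7 had a change of 0.074, between 0.074 and 0.11 over its 4 probes.

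Of the 302 circular RNAs tested, none passed the threshold (lowest adjusted p = 0.307), where 0.00289% of all 34552 tested circular RNAs did. An unadjusted p under 0.05 was found for 45, which is 14.9% beside 14.8% of all circular RNAs. The genotypes did not overlap at 81, which is 26.8% beside 23.3%, with 70 higher and 11 lower in the knockout, beside 16.5% and 6.82%. The median change was 0.14, beside 0.082 over all circular RNAs, and 224 of 302 (74.2%) lay above 0, beside 64.2%. With slide as a block the median was 0.057, beside 0.038, and 10 had an unadjusted p under 0.05, beside a share of 3.49% of all circular RNAs. Any circular RNA well above background on all arrays of either genotype was tested. The 302 and the 70 therefore include the opposite-strand circle of Gria1 described below, which passed only through the knockout arrays where it was high. How many others did so is not given here, and the totals are a description.

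The lower circular RNAs next in p lay in DLG scaffolds. One in Dlg3, chrX:100771307-100776481, stood at 1.71, 1.62 and 1.502 in the knockout samples, against 1.96, 1.91 and 1.97 in the wild type samples, a change of -0.33 (SE 0.0919). Another pair lay in Dlg1 and shared a start, and their probes share the 36 letters in capitals in the second sequence; capitals in the first mark letters shared with any Dlg1 circular RNA of the same start or end.
chr16:31771757-31812824: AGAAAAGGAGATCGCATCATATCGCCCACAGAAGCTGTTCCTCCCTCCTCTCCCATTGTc
chr16:31771757-31805734: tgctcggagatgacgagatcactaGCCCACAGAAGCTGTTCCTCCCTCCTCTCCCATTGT

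The longer Dlg1 circular RNA stood at 3.69, 3.79 and 3.65 in the knockout samples, against 4.04, 3.98 and 4.03 in the wild type samples, a change of -0.31 (SE 0.0860). The shorter one had a change of -0.38 (SE 0.113). Both were lower in every knockout array, and with slide as a block their changes were -0.33 and -0.34. Among the 48 circular RNAs of Dlg1 the genotypes did not overlap at 12, of which 8 were higher and 4 lower, beside 23.3% of all circular RNAs (16.5% higher and 6.82% lower). The Dlg1 mRNA had a change of -0.077.

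The higher circular RNAs with the smallest p lay in Grik4, Gria1, Dlgap1 and Grm4. The Grik4 circle, chr9:42622059-42671303, stood at -1.80, -1.64 and -1.58 in the knockout samples, against -2.12, -2.03 and -2.12 in the wild type samples, a change of 0.42 (SE 0.0958). Those of Dlgap1, chr17:70662567-70761380, and Grm4, chr17:27502647-27503533, had changes of 0.45 (SE 0.126) and 0.55 (SE 0.156). The one in Gria1, chr11:57300740-57319802, lies on the strand opposite to the gene. It did not rise well above background in any wild type sample, so that its knockout signal is given only as higher by at least 1.24-fold. It was tested only because its knockout arrays passed the background criterion, so its p is not read as evidence of a difference. The circles of Grik4, Dlgap1 and Grm4 had an adjusted p of 0.307.

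Gria1, Grik2 and Grid1 are mentioned for how many of their circles separated the genotypes, and were picked after the values were seen. In Gria1, 14 of 28 circular RNAs were higher in every knockout array, beside 16.5% of all circular RNAs, with a median change of 0.18, while its mRNA had a change of -0.018. The 14 include the circle on the opposite strand, which was tested only through its knockout arrays. In Grik2, 9 of 26 were higher in every knockout array, beside the same 16.5%, with a median change of 0.20, beside 0.23 for its mRNA. With slide as a block the median change was 0.14 in Gria1 and 0.095 in Grik2. In Grid1, 6 of 13 were higher and 0 lower, beside 16.5% and 6.82% of all circular RNAs. The median change in Grid1 was 0.20, beside -0.66 for its mRNA at the brightest probe. Circular RNAs of the same gene share exons and samples and do not count as replicates.

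**Figure D5:**
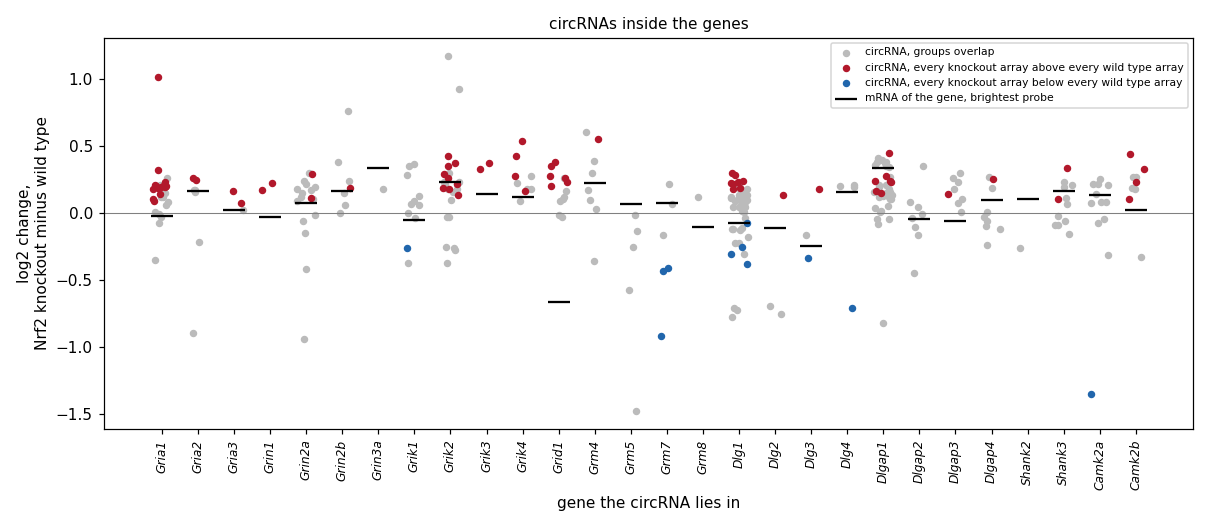
Log2 change (Nrf2 knockout minus wild type, vertical axis) of the 302 circular RNAs inside 28 of the genes; each point is a circular RNA, red or blue where every knockout array lay above or below every wild type array, grey where the arrays overlap, and black dashes give the mRNA of the gene. Most points lie above 0. Blue points make up 3 of 6 in Grm7 and 4 of 48 in Dlg1, beside 6.82% of all circular RNAs.

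Further genes of the glutamatergic synapse were read from a list of 69, of which 68 were tested. None passed the threshold in limma (lowest adjusted p = 0.317); 2 had an unadjusted p under 0.05, beside the 12.4% of all coding genes, and their median change was 0.051. The genotypes did not overlap at 9 genes (13.2%), 5 higher and 4 lower in the knockout, beside 19.4% of all coding genes (6.47% higher and 12.9% lower). Cnih3, which slows the closing of AMPA receptors, stood at 2.20, 2.20 and 2.28 in the knockout samples, against 2.11, 1.80 and 1.87 in the wild type samples, a change of 0.30 (SE 0.109). Cnksr2, a scaffold of the postsynaptic density, was also higher in every knockout array, by 0.25 (SE 0.103). So were Grip2, which binds the tail of the AMPA receptor, by 0.18 (SE 0.0825), and Lrrtm2, an adhesion protein that binds neurexin, by 0.22 (SE 0.0982).

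The 4 genes lower in every knockout array were a mixed set. Slc38a2, a glutamine transporter, had 4.82, 4.91 and 5.06 in the knockout samples, against 5.18, 5.27 and 5.08 in the wild type samples, a change of -0.25 (SE 0.105). Iqsec2, an exchange factor for ARF GTPases at the synapse, had a change of -0.20 (SE 0.0840). Itpr1, the calcium channel of the endoplasmic reticulum downstream of Grm5, had a change of -0.17, and Slc1a2, the main glutamate transporter of astrocytes, by -0.11. Over the list, 47 of 68 genes lay above 0, beside 48.7% of all coding genes, and 31 of 68 did with slide as a block, beside 34.1%. Auxiliary subunits of AMPA and kainate receptors lay above 0 in 10 of 14 cases, and in 7 of 14 with slide as a block. Other postsynaptic density genes did in 15 of 21 cases, and in 10 of 21 with slide as a block.

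NRF2 binds the antioxidant response element, whose core is written TGACNNNGC. Promoters of RefSeq, build GRCm38.p6, from 250 bases before to 50 after the start, were given for 25 of the 38 genes, 38 promoters in all. The core was found, on either strand, in 4 of them, 10.5% beside 12.4% of 32851 promoters of the same length; the genes were Grin2d, Dlg2, Shank3 and Dlgap1. Grin2d and Dlgap1, the pair whose genotypes did not overlap, are shown, with the core in capitals, 5′ to 3′ on the strand of the gene. The Dlgap1 window holds the core 2 times, both on the opposite strand. A match is a description of letters and not a binding site.
Grin2d, chr7:45866794-45866842, minus strand: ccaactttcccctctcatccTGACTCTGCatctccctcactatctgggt
Dlgap1, chr17:70561497-70561545, plus strand: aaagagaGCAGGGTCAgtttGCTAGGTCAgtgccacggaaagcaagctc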

How the data were processed

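Total RNA of 6 samples was labelled with Cy3, per the labels' protocols, and the deposited scanner files hold processed signal intensity and mean and background intensity from Agilent Feature Extraction, version 12.0.3.1 per the file headers and 10.7 per the submitters' processing notes. The processed value table that the authors deposited holds log2 values (column medians 5.59, correlation with the scanner values at least 0.99986), with no normalization named in the sources used here. Its values differed from quantile-normalized scanner values by a median of at most 0.0043 log2 on any array. Quantile normalization and the authors' values are therefore nearly the same setting below. Control spots and outlier spots were left out. The processed signal was taken to log2 minus the 75th percentile of the array, 245 to 269 in the knockout and 278 to 280 in the wild type. Probes well above background on all 3 arrays of a genotype were tested (105930 of 150305), with lmFit and eBayes of limma 3.58.1 in R 4.3.3, two-sided, Benjamini-Hochberg adjusted over all tested probes at 0.05. Intervals are the 95% intervals of that fit, and errors are its standard errors. Each gene is read at its brightest tested probe; 1 value of a dimmer Gria2 probe, in a wild type sample, was an outlier and left out. Named with values in every sample were genes with an unadjusted p under 0.05 or without overlap, otherwise the smallest p of the class; other synapse genes and circular RNAs without overlap were named up to 4 in each direction by p. The genes and lists were chosen with earlier results of these data known. The fit was tested on simulated data. mm9 probe positions are the array's; exon or UTR was not assigned.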

Additional observations from a re-analysis of the deposited data

How the results depend on the processing

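None of the 38 genes passed the threshold with quantile normalization, centring on the array median, normexp correction, the authors' deposited values, either filter on dim probes, slide as a block, slide 1 alone, the replicate number as a block, or the mean of all probes; leaving out 1 sample gave 0 to 2, the 2 without knockout replicate 1. The same omissions gave 0 to 2 other synapse genes and 0 to 41 of the 302 circular RNAs, again from knockout replicate 1. In that fit 13562 of all tested probes and 8.95% of all coding genes passed. A share over all circular RNAs in it is not given here, so the 41 are not read as a result about these circles. The median change was 0.012 with slide as a block and 0.012 on slide 1 alone, where the lone knockout sample is assumed to vary like the wild type, and 0.044 to 0.11 with 1 sample left out. Centring on the array median put 30 of the 38 genes above 0. That setting shifts all genes of an array by the same amount, and the share of all coding genes above 0 under it is not given here. The count is therefore not read as a result about the 38 genes. Probes past the threshold, 10 as reported, numbered 17 with normexp, 4 on slide 1 alone, 4 when well above background on all arrays and 2 with the replicate block; with 1 sample left out they numbered 5 to 13562 (13562 without knockout replicate 1, 6 without replicate 2, 5 without replicate 3, 50 without wild type replicate 1, 6 without replicate 2 and 5 without replicate 3). Same-numbered samples did not deviate together (correlations -0.013, -0.050 and 0.038), so the numbers were not taken to pair the samples; under the replicate block Nfe2l2 kept its change of -4.08 with an adjusted p of 0.052, and with normexp its change was -2.42. Of 570 values of single genes under alternatives, 45 in 15 genes changed sign, none of them past the threshold.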
